A study of Mus musculus with 23 samples.

Results

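Smoc1, Sall1 and Platr20 are 3 mouse loci that each hold a transcribed long terminal repeat (LTR) of the ERVK family of endogenous retroviruses, which the study lists among its imprinted LTRs. DNA methylation was followed along each of them, in windows whose midpoint lay within chr12:81010000-81190000 for Smoc1, chr8:89025000-89070000 for Sall1 and chr11:51205000-51230000 for Platr20 (GRCm38). At embryonic day (E) 6.5 these were 58 windows (33 at Smoc1, 20 at Sall1 and 5 at Platr20) of 333984 in the genome, and at E7.5 they were 65 windows (38, 22 and 5) of 402812. Of the 58 windows 34 had a value in all 15 libraries, of the 65 windows 65 had one in all 8 libraries, and 48 of the 65 had one on both alleles of all 8 libraries.

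Imprinted genes are expressed from the maternal or the paternal allele only. In non-canonical imprinting the maternal allele is first silenced by H3K27me3 inherited from the oocyte rather than by DNA methylation, and the imprint is kept in extra-embryonic tissues, where an LTR can act as the promoter of the expressed allele. Smoc1 encodes a secreted, calcium-binding matricellular protein, Sall1 a zinc finger transcription factor of embryonic organs, and Platr20 a long non-coding RNA that belongs to a group of pluripotency-associated transcripts.

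The measurements were whole-genome bisulphite sequencing (PBAT) of epiblast, the source of the embryo proper, and of extra-embryonic ectoderm (ExE), which contributes to the placenta. Wild-type embryos came from C57BL6/Babr females mated to CAST/Ei males (B6/CAST) and from the reverse cross (CAST/B6). The matDKO/CAST embryos were Dnmt3a -/+, Dnmt3b -/+ by maternal inheritance, from C57BL6/Babr/129 females with floxed Dnmt3a and Dnmt3b and the oocyte-specific Zp3 Cre, mated to CAST males. These females lack both de novo DNA methyltransferases in the oocyte, whereas the embryo still has the paternal copies. E6.5 libraries came from a fraction of the chromatin of pooled embryos, numbering 3 for epiblast and 2 for ExE in B6/CAST, 3 and 2 in CAST/B6, and 2 and 3 in matDKO/CAST. E7.5 libraries came from single wild-type embryos, with 2 libraries per cross and tissue. Values are percent methylation per window, and a difference between them is given in percentage points. The tables hold no read coverage, and the depth of a value is therefore unknown. Exact permutation tests were two-sided throughout.

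The LTR at Smoc1 is an RLTR11B of 480 bp (chr12:81019166-81019645), between genes and 7.40 kb upstream of the start of Smoc1, a protein-coding gene of 160 kb on the plus strand (chr12:81026808-81186414). The LTR at Sall1 is an RLTR20B3 of 466 bp (chr8:89052772-89053237), 8.84 kb upstream of the start of Sall1, a protein-coding gene of 16.9 kb on the minus strand (chr8:89027235-89044162). The LTR at Platr20 is an RLTR31B2 of 383 bp (chr11:51220214-51220596) that itself holds the start of Platr20 (minus strand, chr11:51189833-51220418) and, on the other strand, that of Gm12569. The reference sequences are shown because the CpGs in them, in capitals, are the sites at which methylation could be read. Each LTR is printed for its first 300 bases in the direction of its gene (GRCm38; Smoc1 chr12:81019166-81019465, plus strand; Sall1 chr8:89052938-89053237, minus strand; Platr20 chr11:51220297-51220596, minus strand), and the Sall1 promoter as the 300 bases around the start (chr8:89044113-89044412, minus strand, RefSeq, GRCm38.p6) for contrast.
Smoc1 LTR: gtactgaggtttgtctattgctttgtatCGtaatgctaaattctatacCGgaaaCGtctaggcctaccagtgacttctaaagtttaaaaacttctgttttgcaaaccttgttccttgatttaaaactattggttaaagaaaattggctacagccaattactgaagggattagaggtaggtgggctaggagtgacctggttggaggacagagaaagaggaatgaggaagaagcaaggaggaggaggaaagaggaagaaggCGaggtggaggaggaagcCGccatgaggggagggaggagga
Sall1 LTR: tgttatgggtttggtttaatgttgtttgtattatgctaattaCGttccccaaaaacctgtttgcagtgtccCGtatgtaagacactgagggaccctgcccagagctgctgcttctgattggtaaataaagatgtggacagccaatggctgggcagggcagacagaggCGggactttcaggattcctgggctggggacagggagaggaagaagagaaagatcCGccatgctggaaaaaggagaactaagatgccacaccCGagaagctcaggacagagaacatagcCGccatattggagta
Platr20 LTR: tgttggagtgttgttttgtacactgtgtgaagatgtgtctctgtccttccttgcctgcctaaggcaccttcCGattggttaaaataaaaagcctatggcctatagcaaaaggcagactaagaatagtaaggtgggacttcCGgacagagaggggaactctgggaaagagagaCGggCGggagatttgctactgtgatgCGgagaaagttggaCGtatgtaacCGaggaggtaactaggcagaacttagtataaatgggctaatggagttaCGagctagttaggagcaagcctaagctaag
Sall1 promoter: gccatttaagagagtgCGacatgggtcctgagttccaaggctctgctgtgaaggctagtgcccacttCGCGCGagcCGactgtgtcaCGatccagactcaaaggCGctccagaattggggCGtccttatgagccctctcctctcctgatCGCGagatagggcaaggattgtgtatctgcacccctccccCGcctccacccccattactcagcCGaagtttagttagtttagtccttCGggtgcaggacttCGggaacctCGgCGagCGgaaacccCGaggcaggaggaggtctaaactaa
The printed stretches hold 5, 6 and 8 CpGs in the LTRs and 18 in the Sall1 promoter. Of 32851 RefSeq promoters of the same length, 62.0%, 56.4% and 48.6% hold at least as many CpGs as the Smoc1, Sall1 and Platr20 stretches, and 29.7% at least as many as the Sall1 promoter. The LTR stretches were picked as those of this length with the most CpGs, whereas the promoters were not picked in this way. Over its whole length the Smoc1 LTR was 84.2% identical to the RLTR11B at Sfmbt2 across 93.3% of its bases, and 83.8% identical to the RLTR11B at Gtsf1l, which the study lists as not imprinted, across 88.5%. The windows of the loci hold a median of 56 reference CpGs at E6.5 and 49 at E7.5 and are far longer than an LTR. The LTR therefore fills 11.5% of its window at Smoc1, 10.3% at Sall1 and 9.48% at Platr20 at E7.5, and an LTR value below is the mean of the windows that touch the LTR with 500 bp of flank at each end, each weighted by the bases it shares with them.

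The labels were checked on windows that hold gene starts. Elf5, a trophoblast factor, was methylated at 60.8% to 69.1% in E7.5 ExE and 80.4% to 92.6% in E7.5 epiblast, whereas Pou5f1, an epiblast factor, was at 37.2% to 42.1% in ExE and 11.4% to 25.0% in epiblast. Wild-type tissues overlapped at E6.5 for Elf5, with 69.9% to 85.2% in ExE and 75.2% to 95.2% in epiblast. They did not for Pou5f1, with 15.9% to 77.8% in ExE and 1.79% to 10% in epiblast. In matDKO/CAST the maternally methylated start of Peg3 was at 3.21% to 10.99% in E6.5 ExE, against 51.9% to 86.6% in wild-type ExE of that age. At Mest and Snrpn, also maternally methylated, the matDKO/CAST ExE libraries overlapped wild type. Mean methylation over autosomal windows differed between groups. At E6.5 it was 65.9% to 74.9% in B6/CAST, 78.6% to 79.4% in CAST/B6 and 53.1% to 54.7% in matDKO/CAST epiblast, and 53.5%, 63.8% to 66.2% and 39.6% to 41.8% in the corresponding ExE. At E7.5 it was 71.7% to 75.6% in epiblast and 56.0% to 59.2% in ExE. In 1 matDKO/CAST epiblast library 27.8% of windows had no value.

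Along Smoc1 and Platr20, methylation was high except at the CpG-dense start of Smoc1, and along Sall1 it was low over the start and beyond the end of the gene (plots of methylation against the distance from the LTR). At Smoc1 the lowest window at E7.5 in both tissues held the gene start (chr12:81026143-81026956, 60.2 CpGs per kb), at 7.13% ± 1.60 (SD, n = 4) in epiblast and 9.43% ± 3.17 (SD, n = 4) in ExE. The 32 windows over the rest of the gene averaged 80.6% ± 1.80 (SD, n = 4) in epiblast, and the highest of them (chr12:81134948-81139410) had 90.6%. Sall1 had a broad unmethylated region over its start and first part, with 0.393% ± 0.495 (SD, n = 4) in the E7.5 epiblast window of the start, and rose to 91.2% in a window upstream of the LTR (chr8:89060401-89063545). Beyond the end of the gene (chr8:89024687-89025904) it was at 3.43% to 7.26% in epiblast, and in a CpG-poor window inside it (chr8:89036224-89040711) at 35.5% to 49.3%. Platr20 has no such trough. Its 5 windows lay between 81.8% and 86.9% in E7.5 epiblast although 2 of them hold gene starts, and the lowest and the highest of them were the window with most of the LTR (chr11:51220215-51224242) and a window inside Platr20 (chr11:51212023-51215811). The 3 LTRs thus lay in methylated surroundings in epiblast, and only Smoc1 and Sall1 have an unmethylated start a few kilobases downstream.

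All 3 LTRs were less methylated in ExE than in epiblast at both ages, in a genome in which most windows were. At E7.5 the Smoc1 LTR was methylated at 78.4% and 70.4% in B6/CAST epiblast, 76.3% and 82.4% in CAST/B6 epiblast, 55.4% and 55.4% in B6/CAST ExE, and 44.4% and 44.5% in CAST/B6 ExE. The Sall1 LTR had 84.4%, 83.7%, 80.7% and 86.3% in epiblast and 60.3%, 58.1%, 62.3% and 63.2% in ExE, in the same order. The Platr20 LTR had 83.9%, 79.1%, 79.3% and 86.2% in epiblast and 60.1%, 51.5%, 61.9% and 58.0% in ExE. At each of the LTRs the lowest epiblast library lay above the highest ExE library. The difference, ExE minus epiblast, was -27.0 points at Smoc1 (SE 3.71, limma adjusted p = 0.000272), -22.8 at Sall1 (SE 2.24, adjusted p = 9.63e-05) and -24.3 at Platr20 (SE 2.89, adjusted p = 0.000159). Exact permutation gave p = 0.0286 for each, the smallest that 4 libraries against 4 allow. Within B6/CAST the differences were -19.0, -24.8 and -25.7 points, and within CAST/B6 they were -34.9, -20.7 and -22.8.

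At E6.5 the levels overlapped between tissues. The Smoc1 LTR had 62.4%, 57.1% and 87.3% in B6/CAST epiblast, 97.5%, 85.5% and 85.0% in CAST/B6 epiblast, 52.9% and 51.7% in B6/CAST ExE, and 74.4% and 78.1% in CAST/B6 ExE. The Sall1 LTR had 72.7%, 81.8% and 82.5%, then 94.2%, 90% and 65.8% in epiblast, and 57.6%, 40.8%, 82.9% and 50% in ExE. The Platr20 LTR had 69.9%, 66.0% and 79.4%, then 88.8%, 82.2% and 95.4% in epiblast, and 58.1%, 48.4%, 79.5% and 63.8% in ExE. CAST/B6 libraries of either tissue tended to be the higher ones, as over the whole genome, so that CAST/B6 ExE reached into the range of B6/CAST epiblast. With the cross as a covariate the difference was -14.9 points at Smoc1 (SE 5.73, limma adjusted p = 0.0412), -23.4 at Sall1 (SE 7.54, adjusted p = 0.0199) and -17.8 at Platr20 (SE 4.79, adjusted p = 0.00858). Exact permutation without the cross gave p = 0.171, 0.0571 and 0.0571, where 0.00952 is the smallest that 6 libraries against 4 allow. Within B6/CAST the differences were -16.7, -29.8 and -18.5 points and within CAST/B6 -13.1, -16.9 and -17.2. The Smoc1 call rested on the cross term (adjusted p = 0.159 without it), was lost in the 1 window that holds the LTR midpoint (-12.9 points, adjusted p = 0.0911) and on the logit scale (adjusted p = 0.0706), and was also lost without the unnumbered B6/CAST or replicate 1 of the CAST/B6 epiblast libraries or without any 1 of the 4 ExE libraries (-16.0 to -10.5 points, adjusted p = 0.0528 to 0.0962), and the Platr20 call was lost without the cross term (adjusted p = 0.0551). The Sall1 call was lost without replicate 2 of B6/CAST ExE (-18.6 points, adjusted p = 0.0782) or without replicate 2 of CAST/B6 ExE (-18.5 points, adjusted p = 0.0741).

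**Figure D1:**
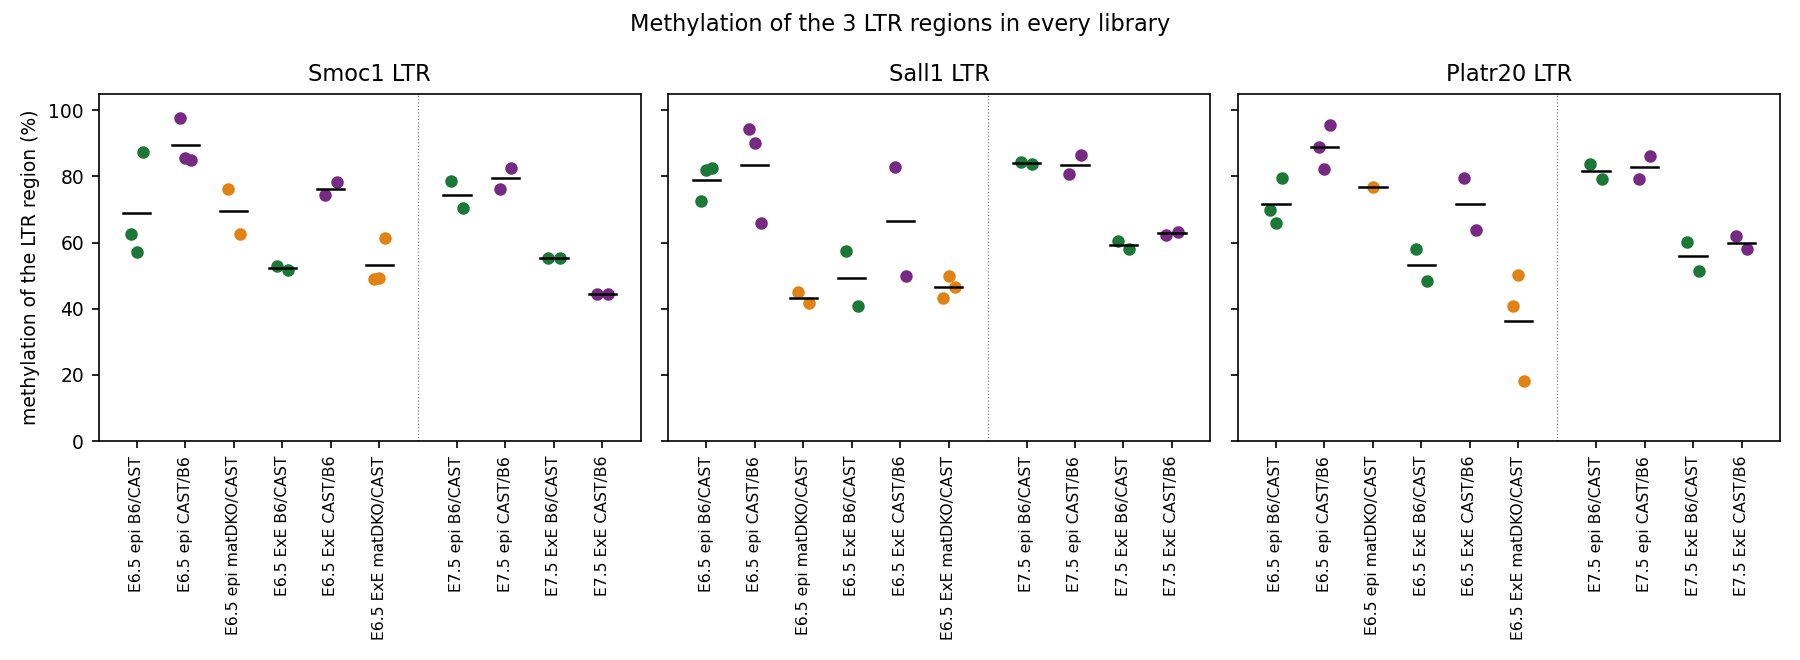
Percent methylation (y axis) of the LTR at Smoc1, Sall1 and Platr20 in each library (points), by age, tissue and cross (x axis), with the group mean as a bar and a dotted line between E6.5 and E7.5. At E7.5 the ExE libraries lie between 44.4% and 63.2%, below every epiblast library of the same LTR, whereas at E6.5 the tissues overlap.

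Over all windows of the loci, 55 of 65 tested at E7.5 differed between the tissues in limma (background 84.2% of 383556 autosomal windows), 5 higher in ExE (background 1.3%) and 50 lower (background 82.9%). At E6.5 26 of 47 differed (background 60.3% of 250886), 2 higher (background 0.663%) and 24 lower (background 59.6%). The median difference was -12.1 points over the 65 windows and -16.5 over all windows at E7.5, and -13.7 and -16.6 at E6.5. Smoc1 had 35 lower of 38 windows at E7.5 and 17 of 29 at E6.5, Platr20 5 of 5 and 4 of 4, and Sall1 10 lower and 5 higher of 22 at E7.5 and 3 lower and 2 higher of 14 at E6.5. When each library's mean over autosomal windows was subtracted, 22 windows differed at E7.5 (background 39.8%), 20 of them higher in ExE (background 20.8%) and 2 lower (background 19%), and 9 at E6.5 (background 14.9%), 8 of them higher (background 8.66%) and 1 lower (background 6.25%). At E7.5 the Smoc1 LTR then kept a difference of -10.6 points (adjusted p = 0.0223) and the Platr20 LTR one of -7.93 (adjusted p = 0.0451). The Sall1 LTR had -6.45 (adjusted p = 0.066). At E6.5 none of the LTRs kept the call, with 1.61 points at Smoc1, now in the opposite direction (adjusted p = 0.857), -6.87 at Sall1 (adjusted p = 0.509) and -1.36 at Platr20 (adjusted p = 0.866).

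The windows called higher in ExE before this subtraction were all at Sall1, on the edges of its unmethylated region and beyond the end of the gene. On the upstream edge (chr8:89045492-89046556) the E7.5 epiblast libraries had 9.18%, 2.71%, 3.03% and 2.85% and the ExE libraries 14.3%, 27.7%, 34.6% and 28.2%, a difference of 21.8 points. The next window towards the LTR (chr8:89046589-89048733) had 19.0%, 20.2%, 16.8% and 18.7% in epiblast and 42.1%, 38.2%, 27.8% and 35.8% in ExE, a difference of 17.3 points. Downstream of the end of Sall1 (chr8:89024687-89025904) epiblast had 7.26%, 3.43%, 5.44% and 5.77% and ExE 25.9%, 14.9%, 18.9% and 24.8%, a difference of 15.6 points. In each of these windows all ExE libraries lay above all epiblast libraries. The other 2 were nearer the start and differed by 5.67 (chr8:89040712-89041564) and 5.96 points (chr8:89044344-89045463). At E6.5 the upstream edge (chr8:89045521-89046960) differed by 18.0 points (limma adjusted p = 0.00523) and the downstream window (chr8:89024838-89025934) by 21.8 (adjusted p = 0.0022). The start itself stayed below 5% in all 8 E7.5 libraries, with 0.543%, 0%, 0% and 1.03% in epiblast and 2.10%, 1.81%, 1.19% and 4.65% in ExE (difference 2.04 points, limma adjusted p = 0.35, exact permutation p = 0.0286).

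The gene bodies followed the tissue difference to unequal degrees. That of Smoc1 (32 windows at E7.5) had 81.7%, 79.5%, 78.6% and 82.5% in epiblast and 69.6%, 67.3%, 65.8% and 67.0% in ExE. The difference was -13.1 points at E7.5 (exact permutation p = 0.0286) and -16.3 at E6.5 over 23 windows (exact permutation p = 0.00952), the smallest p each number of libraries allows. Platr20 differed by -11.3 points at E7.5 over 2 windows. The body of Sall1, which includes the unmethylated region, differed by -2.11 points at E7.5, from 39.0% ± 0.674 to 36.9% ± 0.970 (SD, n = 4 each), and by -5.08 at E6.5.

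At E7.5 reads were assigned to the parental strains by SNPs, and the maternal and paternal alleles were compared within each library. In ExE the Smoc1 LTR had 63.3%, 58.8%, 60.0% and 63.6% on the maternal allele of the 2 B6/CAST and the 2 CAST/B6 libraries and 59.5%, 53.2%, 31.99% and 24.7% on the paternal allele. The maternal level lay between 58.8% and 63.6% in both crosses, while the paternal level was lower where the paternal allele was B6 (31.99% and 24.7%) than where it was CAST (59.5% and 53.2%). The difference, maternal minus paternal, was 4.66 points in B6/CAST and 33.4 in CAST/B6, on average 19.0 (SE 4.12, limma unadjusted p = 0.00348, adjusted p = 0.777). This held for the 1 window over the LTR. In the mean of the windows within 5 kb of the LTR the maternal allele had 62.1%, 55.6%, 58.9% and 66.3% and the paternal allele 69.97%, 61.5%, 47.8% and 47.8%, so that both B6/CAST libraries changed direction and the mean difference was 3.96 points (adjusted p = 0.889). The strain difference, B6 minus CAST, was -14.4 points (SE 4.12, unadjusted p = 0.0127, adjusted p = 0.539). In epiblast the maternal allele had 81.8%, 73.8%, 95.5% and 70.5% and the paternal allele 84.2%, 79.9%, 66.7% and 95.2%. There the CAST/B6 libraries went in opposite directions, and the mean difference was -1.09 points (adjusted p = 0.999).

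The Sall1 LTR in ExE had 73.1%, 66.5%, 54.4% and 73.1% on the maternal and 60.8%, 53.5%, 67.1% and 66.5% on the paternal allele. The maternal allele was higher by 12.6 points in B6/CAST, and in CAST/B6 the libraries disagreed in sign, with a mean of -3.05. The Platr20 LTR in ExE had 60.0%, 60.3%, 65.9% and 68.5% on the maternal and 61.7%, 48.3%, 63.1% and 52.0% on the paternal allele, a difference of 5.19 points in B6/CAST and 9.62 in CAST/B6. Limma gave an adjusted p of 0.886 and 0.814 for these LTRs. In epiblast the differences were -4.27 and 0.707 points (adjusted p = 0.956 and 0.998). Both alleles of every LTR were less methylated in ExE than in epiblast, with differences of -19.0 points on the maternal and -39.1 on the paternal allele at Smoc1, -14.6 and -23.7 at Sall1, and -20.4 and -27.1 at Platr20, with no overlap between the tissues (exact permutation p = 0.0286 each, the smallest possible). Over all autosomal windows both alleles were also lower in ExE, with library means of 57.3% to 61.3% against 74.2% to 78.7% in epiblast. How much of the LTR differences this genome-wide one makes up was not tested. Whether the parental difference itself differed between tissues was tested at each LTR, with 20.1 points at Smoc1 (limma adjusted p = 0.913), 9.04 at Sall1 (0.926) and 6.70 at Platr20 (0.942). Without 1 library these ran from 6.76 to 33.5, 4.22 to 13.9 and 3.26 to 10.1 points, positive throughout.

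**Figure D2:**
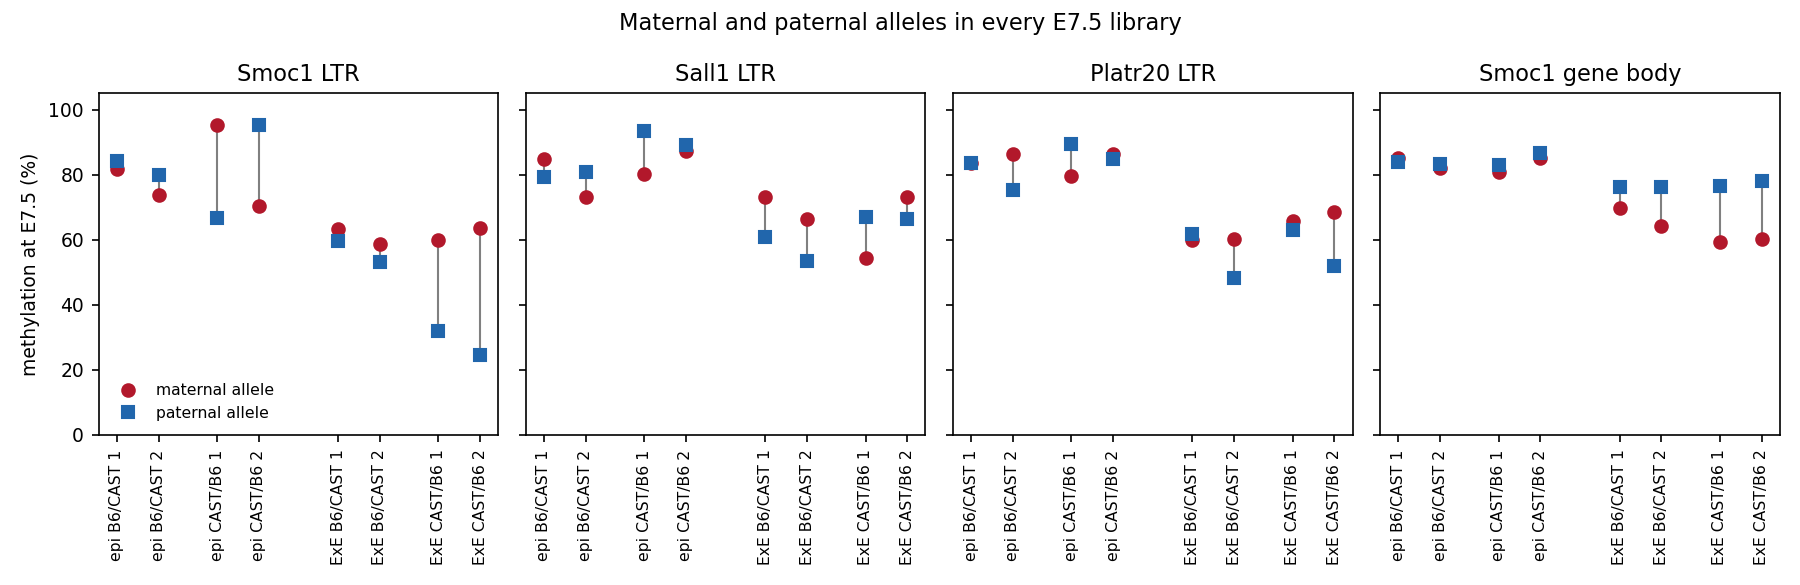
Percent methylation (y axis) of the maternal (circles) and paternal allele (squares) in each E7.5 library (x axis), joined by a line, at the 3 LTRs and as the mean over the Smoc1 gene body. In ExE the paternal squares lie below the maternal circles in the window of the Smoc1 LTR and above them over the Smoc1 gene body in all 4 libraries, whereas within 5 kb of the LTR the B6/CAST libraries have the opposite order to that of the LTR window.

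Over the body of Smoc1 the order of the alleles was the opposite of that in the window of its LTR. In ExE the mean of 30 windows was 69.9%, 64.1%, 59.2% and 60.1% on the maternal allele and 76.3%, 76.2%, 76.4% and 77.9% on the paternal allele. The paternal values lay within 2 points of each other, and the maternal allele was lower in 4 of 4 libraries, with differences of -6.42, -12.1, -17.2 and -17.8 points. The mean difference was -13.4 points ± 5.31 (SD, n = 4; exact sign-flip permutation p = 0.125, the smallest that 4 libraries allow), -9.25 in B6/CAST and -17.5 in CAST/B6. In epiblast the mean of 27 windows was 85.2%, 82.1%, 81.0% and 85.2% on the maternal and 83.8%, 83.3%, 83.01% and 86.6% on the paternal allele, a difference of -0.822 points ± 1.54 (SD, n = 4). Over the 27 windows measured in both tissues the parental difference was more negative in ExE (-13.2 points), with no overlap between tissues (exact permutation p = 0.0286, the smallest possible, and 0.0571 without any 1 library). From epiblast to ExE the maternal allele changed by -19.1 points and the paternal allele by -5.91.

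The difference extended along the gene and was also seen upstream of the LTR. In the window directly upstream of that of the LTR (chr12:81013715-81018092) the maternal allele had 57.6%, 50.3%, 49.1% and 70.1% and the paternal allele 81.1%, 69.0%, 74.2% and 72.97% in ExE (-17.5 points, SE 5.01), lower on the maternal allele in 4 of 4 libraries. Over the 4 windows of the locus centred outside the gene and away from the LTR the difference was -5.55 points ± 3.40 (SD, n = 4), negative in 4 of 4 libraries, and -0.477 ± 2.77 (SD, n = 4) in epiblast. These windows did not share a direction, and in 1 of the 4 the paternal allele was higher in all 4 ExE libraries. Between the LTR and the start (chr12:81022261-81026096) the maternal allele had 65.3%, 57.8%, 67.7% and 65.2% and the paternal allele 69.3%, 62.2%, 37.3% and 45.7%, a mean difference of 10.4 points that was positive in CAST/B6 and negative in B6/CAST. Within the gene, in ExE the paternal allele had the higher mean in 29 of 30 gene body windows (background 161199 of 318358 autosomal windows). In 18 of 30 it was higher in all 4 libraries (background 6.27% of 318358), against 1 of 30 with the maternal allele higher in all 4 (background 6.32%). In epiblast 1 of 27 windows had a higher paternal allele in all 4 libraries (background 6% of 238529) and 1 of 27 a higher maternal allele (background 5.75%). The largest differences in ExE were 57.7 kb into the gene (chr12:81081453-81087522), with 64.9%, 53.4%, 54.5% and 38.9% on the maternal and 71.7%, 80.2%, 83.04% and 84.9% on the paternal allele (-27.0 points, SE 5.38), and near its end (chr12:81173964-81177860), with 79.6%, 49.3%, 35.6% and 33.3% and with 71.5%, 83.3%, 77.7% and 72.7% (-26.8 points, SE 7.16). In the second of these windows B6/CAST replicate 1 went the other way. For orientation, mean differences were computed in the same way for the 1987 genes with at least 20 such windows. Their central 90% lay between -2.72 and 3.95 points, Smoc1 ranked 2 from the lowest, after Sfmbt2 (-21.1), the gene of another of the imprinted LTRs, and before Zan (-6.35). In epiblast Smoc1 ranked 312 of 1463.

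**Figure D3:**
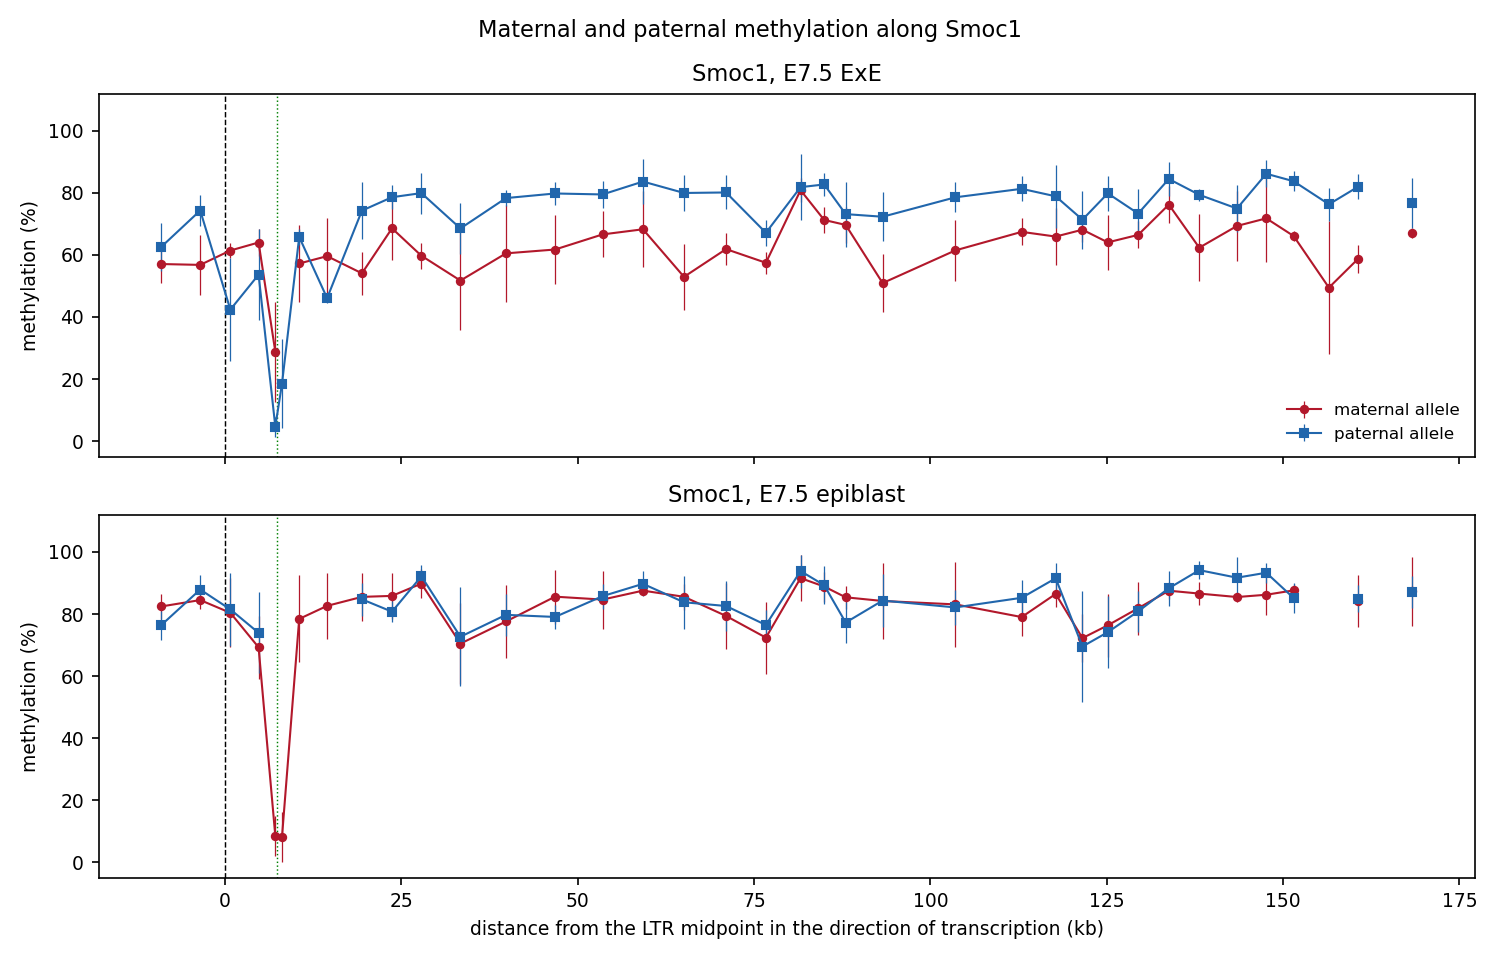
Mean percent methylation (y axis) of the maternal and paternal allele in E7.5 windows along Smoc1, against the distance from the LTR midpoint in kb (x axis), for ExE (top) and epiblast (bottom); bars are the SD over 4 libraries, the dashed line marks the LTR, the dotted line the gene start, and windows without a value in all 4 libraries are left out. In ExE the paternal line lies below the maternal at the LTR and the start and above it in 29 of 30 windows of the gene body, and in epiblast the lines overlap.

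**Figure D4:**
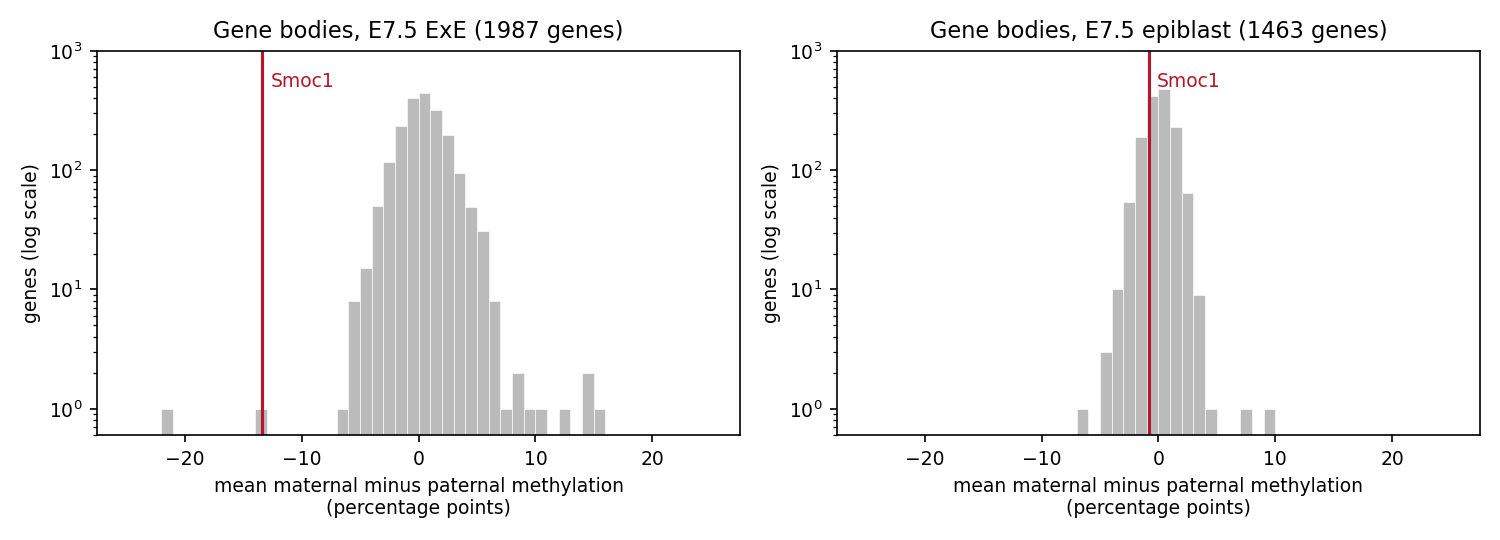
Number of genes (y axis, log scale) by the mean maternal minus paternal methylation of the gene body in percentage points (x axis) in E7.5 ExE and epiblast, for genes with at least 20 windows. The line marks Smoc1, at -13.4 points in ExE and -0.822 in epiblast.

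At the start of Smoc1 the alleles were ordered as at the LTR. In ExE the window had 48.5%, 16.3%, 35.3% and 15.0% on the maternal and 7.09%, 0%, 5.17% and 6.45% on the paternal allele, a difference of 24.1 points in the same direction in 4 of 4 libraries (SE 6.08, limma adjusted p = 0.777). In epiblast it had 1.11%, 6.76%, 16.7% and 9.35% on the maternal allele and 0%, 11.4% and 3.23% on the paternal allele of the 3 libraries with a value. The values over all reads were lower than the maternal ones in each ExE library, at 10.9%, 9.43%, 12.4% and 5.02%. That of CAST/B6 replicate 2 lay below both of its alleles. Over all reads ExE and epiblast differed by 2.30 points here (limma adjusted p = 0.374). Allele values rest on reads that cover a SNP, and in 46 of 475 comparisons at the loci (9.68%) the value over all reads lay more than 5 points outside the range of the alleles.

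Around the other LTRs the parental differences were mixed. The window with most of the Sall1 LTR (chr8:89052840-89056712) had 78.6%, 72.6%, 60.6% and 69.3% on the maternal and 49.7%, 43.1%, 64.1% and 61.8% on the paternal allele in ExE (15.6 points, SE 4.12, limma unadjusted p = 0.00894). Its B6/CAST libraries differed strongly, and CAST/B6 replicate 1 went the other way. The neighbouring window towards the gene (chr8:89048734-89052839) had 64.4%, 56.7%, 44.6% and 79.0% on the maternal and 78.5%, 70.0%, 71.8% and 73.9% on the paternal allele (-12.3 points). The next one (chr8:89046589-89048733) had 26.8%, 33.6%, 13.8% and 32% against 40.7%, 35.0%, 45.5% and 50.8% (-16.4 points), lower on the maternal allele in 4 of 4 libraries. This is a window with more methylation in ExE than in epiblast. In a window inside Sall1 (chr8:89030041-89031432) the difference was -15.4 points, and downstream of the gene (chr8:89024687-89025904) it was 11.3.

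At Platr20 the window that holds nearly all of the LTR (chr11:51220215-51224242) had 54.0%, 62.4%, 67.0% and 68.2% on the maternal and 49.1%, 41.6%, 62.6% and 53.0% on the paternal allele in ExE (11.3 points, positive in 4 of 4). The window on the other side of the LTR (chr11:51215855-51220214) differed by 0.490 points. The 2 windows further inside Platr20 went the other way, by -9.79 (chr11:51212023-51215811) and -13.1 points (chr11:51206641-51211868). Their mean was 71.8%, 72.5%, 64.2% and 71.4% on the maternal and 80.7%, 77.6%, 80.5% and 86.9% on the paternal allele, a difference of -11.4 points ± 5.39 (SD, n = 4). In epiblast it was -5.64 points, and the tissues did not differ beyond their spread (-5.79 points, exact permutation p = 0.229).

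**Figure D5:**
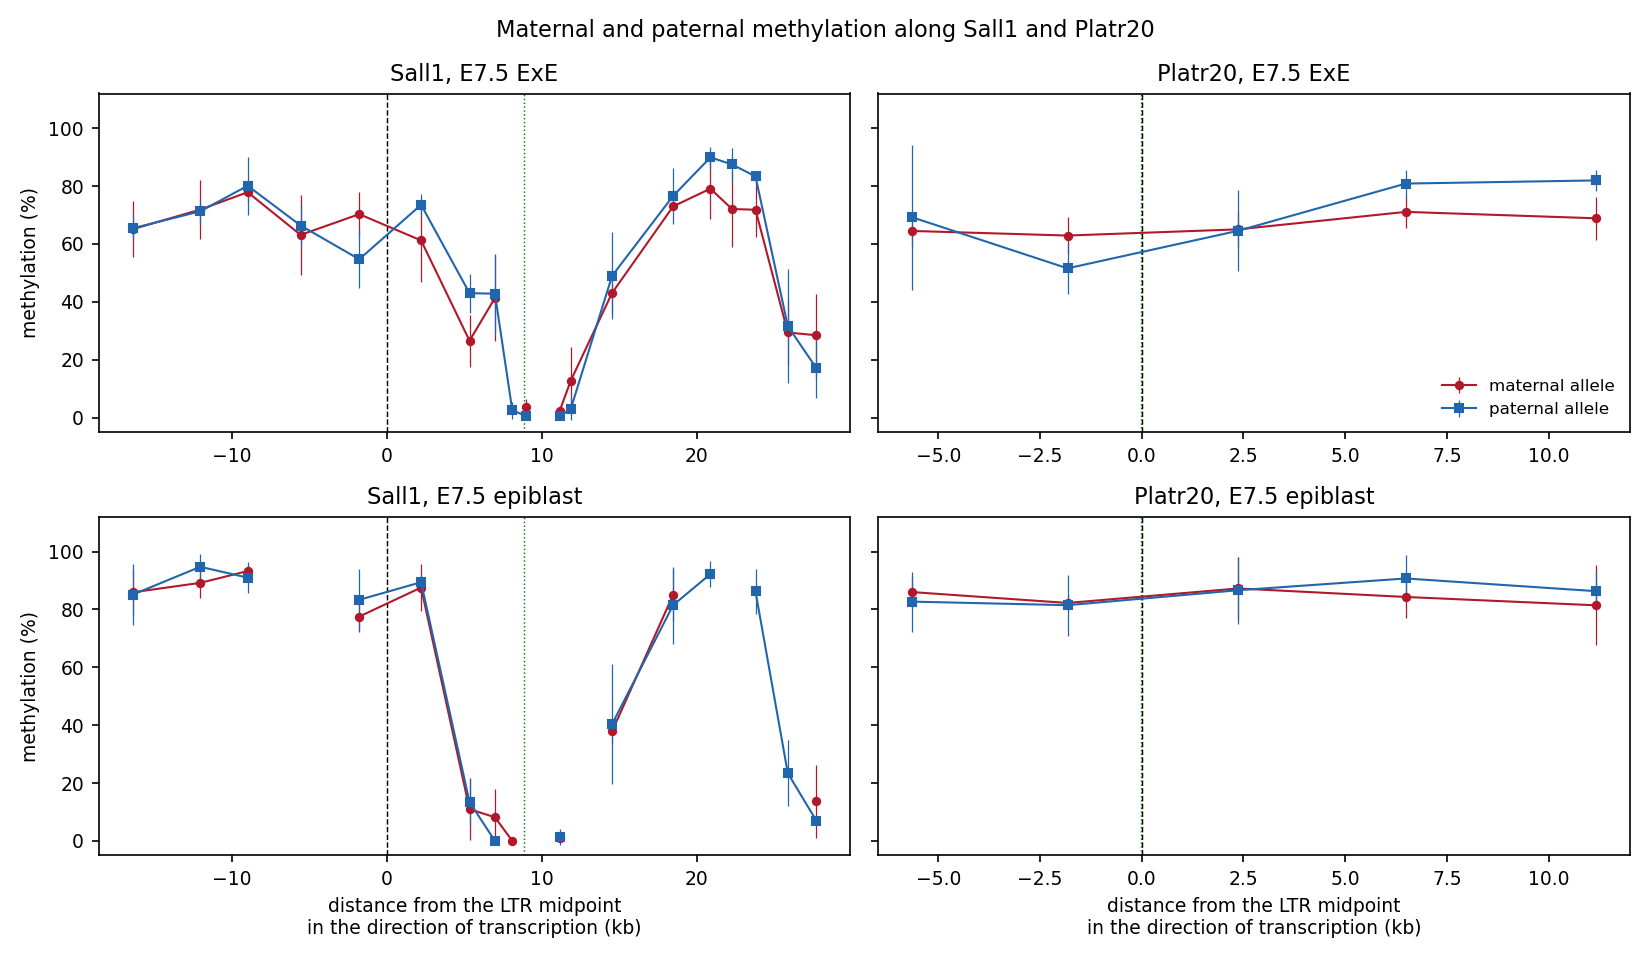
Mean percent methylation (y axis) of the maternal and paternal allele in E7.5 windows along Sall1 (left) and Platr20 (right), against the distance from the LTR midpoint in kb (x axis), for ExE (top) and epiblast (bottom); bars are the SD over 4 libraries, the dashed line marks the LTR, the dotted line the gene start, and windows without a value in all 4 libraries are left out. At Sall1 both alleles fall below 5% at the gene start in ExE, a window left out in epiblast, and at Platr20 both stay above 50% in every window.

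No window of the loci reached an adjusted p of 0.05 for a parental difference in limma, 0 of 59 in ExE (background 0.00722% of 318358 windows, 0.00503% with the maternal and 0.0022% with the paternal allele higher) and 0 of 48 in epiblast (background 0.00838% of 238529, 0.00629% and 0.0021%), nor for the difference between tissues (0 of 48, background 0%) or between strains (0 of 59 in ExE, background 0%). At an unadjusted p under 0.05 there were 28 of 59 windows in ExE (23 of 36 at Smoc1, 4 of 18 at Sall1 and 1 of 5 at Platr20), where 6.38% of all windows passed. There were 0 of 48 in epiblast (4.87% of all windows), 13 of 48 between tissues (5.41%) and 7 of 59, or 11.9%, between strains (8.73%). The median parental difference in ExE was -9.66 points over the 59 windows and -0.0786 over all autosomal windows. In epiblast these medians were -0.812 and -0.0572.

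In matDKO/CAST epiblast the Sall1 LTR was less methylated, and no other LTR that could be tested passed in either tissue. The matDKO/CAST libraries were set against B6/CAST, which has the same direction of cross, in values over both alleles. In epiblast the Sall1 LTR had 45.0% and 41.7% in matDKO/CAST, against 72.7%, 81.8% and 82.5% in B6/CAST. This difference of -35.7 points (SE 8.60, limma adjusted p = 0.0257) was larger than the median over all windows of -16.4. The Smoc1 LTR had 76.2% and 62.6%, against 62.4%, 57.1% and 87.3% (0.460 points, SE 9.54, adjusted p = 0.977), and its direction was not settled (-9.74 against pooled wild type and -6.35 to 9.63 without 1 library). The Platr20 LTR had a value in 1 matDKO/CAST epiblast library only, 76.9%, and was not tested. The Sall1 call was lost without B6/CAST replicate 3 (-34.2 points, adjusted p = 0.0651), without the unnumbered B6/CAST replicate (-33.9, adjusted p = 0.0743) or without matDKO/CAST replicate 3 (-34.0, adjusted p = 0.0772). It was also lost when each library's mean was subtracted (-19.0 points, adjusted p = 0.261), on the logit scale (adjusted p = 0.173) and with the replicate block (-33.9 points, adjusted p = 0.155).

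In ExE the Smoc1 LTR had 48.9%, 49.3% and 61.5% in matDKO/CAST, against 52.9% and 51.7% in B6/CAST (0.965 points, limma adjusted p = 0.931). The Sall1 LTR had 43.4%, 50% and 46.5%, against 57.6% and 40.8% (-2.57 points, adjusted p = 0.879). The Platr20 LTR had 40.8%, 50.1% and 18.1%, against 58.1% and 48.4% (-16.9 points, adjusted p = 0.292), and its low mean rested on replicate 3, without which the difference was -7.79 points. At all 3 LTRs the matDKO/CAST and B6/CAST ranges overlapped in ExE. Against both wild-type crosses pooled, the differences in ExE were all negative, at -11.0 points for Smoc1, -11.2 for Sall1 and -26.1 for Platr20 (limma adjusted p = 0.269, 0.320 and 0.0639).

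Elsewhere in the loci, 9 of 38 windows were lower in matDKO/CAST epiblast (background 23.4% of 192419) and 0 higher (background 0.0291%). They were the Sall1 LTR window, 6 windows of the Smoc1 gene body and 2 windows at Platr20. The largest difference at Smoc1 was in a window 65.8 kb into the gene (chr12:81089971-81095306), with 44.7% and 62.5% in matDKO/CAST against 84.4%, 100% and 90.6% in B6/CAST (-38.1 points). Inside Platr20 (chr11:51200947-51209211) matDKO/CAST had 59.1% and 59.5%, against 81.1%, 88.9% and 92.0% (-28.0 points). Without 1 library the count ran from 2 to 13. The mean of the Smoc1 gene body (18 windows) was 65.1% ± 6.91 (SD, n = 2) in matDKO/CAST epiblast and 83.5% ± 5.65 (SD, n = 3) in B6/CAST, a difference of -18.3 points with no overlap (exact permutation p = 0.2, the smallest possible). The Smoc1 start was at 0% in both matDKO/CAST epiblast libraries and at 0.463% to 4.88% in B6/CAST. In ExE 0 of 50 windows differed in limma (background 0% of 254322), with 7 (14%) at an unadjusted p under 0.05, against 25.8% of all windows. The Smoc1 gene body differed by -8.76 points (54.6% ± 5.52, SD, n = 3, against 63.4% ± 0.713, SD, n = 2; exact permutation p = 0.2). These differences stand beside a lower methylation of the whole library in matDKO/CAST. The part of this in them was not tested beyond the subtraction of the mean, after which 0 windows differed in epiblast (background 0%).

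For comparison, the study lists 5 other transcribed ERVK LTRs as imprinted and 32 as not imprinted. The median parental difference in E7.5 ExE was 7.41 points at the 3 LTRs (4.78 to 19.0), 27.2 at the other 5 imprinted LTRs (6.83 to 44.6, positive at 5 of 5) and -0.305 at the 24 non-imprinted LTRs with a value (-14.8 to 11.7, positive at 10 of 24). Of the 3 LTRs, Sall1 was at -3.05 points within CAST/B6 and at -0.0428 without replicate 2 of that cross, and Smoc1 was at 3.96 in the windows within 5 kb. Larger differences were seen in the window of the LTR midpoint at Sall1 (15.6 points) and Platr20 (11.3). The difference between tissues at E7.5 had medians of -24.3, -24.5 and -17.0 points in the same lists. The study chose the imprinted LTRs by allelic H3K4me3 and transcription in extra-embryonic tissue, so they are given as a description and without a test.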

How the data were processed

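Bisulphite (PBAT) libraries of mouse epiblast and ExE were analysed at E6.5 (15) and E7.5 (8). The authors trimmed reads and aligned them to GRCm38 with strain SNPs masked (Trim Galore 0.4.4 and Bismark 0.20.0 per the submitters' notes), and split E7.5 reads by strain with SNPsplit. They repeated the bisulphite conversion of the E7.5 samples, which can alter levels if conversion is incomplete. The authors deposited percent methylation per window, in 3 tables without coverage that are named for windows of 100 CpGs. The windows at these loci hold fewer reference CpGs than that, and the rule that made them is not given in the sources used here. The depth is not given either, so the precision of a value is unknown. The headings of 5 columns mark a second import, and 1 B6/CAST epiblast column carries no matching replicate number.

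Percentages were used unscaled. Over those autosomal windows that were complete in the samples compared, limma 3.58.1 (R 4.3.3; lmFit, eBayes) was fitted with the cross as covariate, for matDKO/CAST with the cross groups, and for alleles to the maternal minus paternal difference within libraries, with the strain effect as a second coefficient. P-values were adjusted by Benjamini-Hochberg over all windows (threshold 0.05). The tests were tested on simulated data. Single values were compared by two-sided exact permutation tests (scipy 1.17.1). Nothing states that replicates came from separate litters, so p-values measure the spread between these samples. The E6.5 and E7.5 tables have different windows and were not tested against each other.

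The loci and lists were chosen with earlier results of these data known. Named are the windows of the LTRs and gene starts, the 2 with the largest parental difference in either direction and the lowest and highest per tissue; windows called in the other comparisons were named after their values were seen. Alternatives were the logit scale, the eBayes trend and robust settings, 1 missing sample per group, subtraction of the library mean, a minimum of 20 points, other LTR regions, no cross term, a replicate block, pooled wild type and leaving out each replicate. Histone and expression data of the study were not analysed here.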

Additional observations from a re-analysis of the deposited data

Results flagged for a closer look

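Over the 6 windows around Sall1 that hold neither the LTR, the gene start nor the gene body, the maternal minus paternal difference in E7.5 epiblast was 6.30 points in B6/CAST replicate 1 and between -0.105 and 0.468 in the other 3 libraries. This library stood apart from the others by Dixon's criterion, in 1 of 64 groups of samples that were tested, and chance gives about 1 in 20.

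The parental difference over the Smoc1 gene body differed between the tissues, by -13.2 points (ExE minus epiblast, exact permutation p = 0.0286, the smallest that 4 libraries against 4 allow). The maternal allele was the lower one in 4 of 4 ExE libraries and in 3 of 4 epiblast libraries.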

How the results depend on the processing

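Of 432 alternative values of 29 results, 369 kept their direction and their side of the threshold, 34 lost the call, 12 counts moved by over 1.5 times and 17 changed sign; 200 of the 432 left out 1 library. The cause of each change was not tested. For the E6.5 tissues the count of 26 windows became 11 with a minimum of 20 points (38.6% of all windows) and 9 with the library mean subtracted (14.9%). The Smoc1 LTR lost the call, with -12.9 points in the window of its midpoint, -14.9 with the minimum of 20 points and also without the cross term, -1.47 on the logit scale (log2 odds) and 1.61, in the opposite direction, with the library mean subtracted. With the mean subtracted the Sall1 LTR had -6.87 and the Platr20 LTR -1.36, and the Platr20 LTR lost the call at -17.8 with the minimum of 20 points and without the cross term. For the E7.5 tissues the count of 55 became 8 with the minimum of 20 points (36.4% of all windows) and 22 with the mean subtracted (39.8%), when the Sall1 LTR had -6.45. In matDKO/CAST epiblast the count of 9 became 0 on the logit scale and with the mean subtracted (0% of all windows with each). It became 16 of 38 against pooled wild type, where 47.7% of all windows were called. The Smoc1 LTR changed sign to -9.05 in windows within 5 kb, -0.0970 on the logit scale and -9.74 against pooled wild type, and the Sall1 LTR lost the call at -2.33 (logit) and -19.0 (mean subtracted). In matDKO/CAST ExE the count of 0 became 6 of 50 against pooled wild type, where 26.3% of all windows were called. The Smoc1 LTR changed sign to -2.06 within 5 kb and -11.0 against pooled wild type, and the Sall1 LTR to 9.86 with the mean subtracted.

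The replicate numbers were used as a block, although whether they pair the samples is not known. Correlations of the deviations of same-numbered libraries were at most 0.0505 (E7.5) and 0.0322 (E6.5). Between the tissues of the same cross they were 0.0486 and 0.0505 at E7.5, and between crosses -0.0538 to -0.0200. As the depth is unknown, they cannot decide whether epiblast and ExE came from the same embryos. The exact tests between tissues treated the libraries as separate. The replicate block gave 4 windows for the E6.5 tissues (21.3% of all windows), with -13.3, -22.2 and -13.2 points at the Smoc1, Sall1 and Platr20 LTRs. It gave 54 windows for the E7.5 tissues (84.2% of all windows). In matDKO/CAST epiblast it gave 0 (0% of all windows), with -33.9 at the Sall1 LTR. In matDKO/CAST ExE it gave 0 (0% of all windows), with a change of sign to -3.17 at the Smoc1 LTR. The other calls did not change with it.

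Without 1 library the E6.5 tissue count ran from 18 to 26, and the Smoc1, Sall1 and Platr20 LTRs from -17.4 to -10.5, -31.2 to -18.5 and -21.0 to -15.0 points; the E7.5 count ran from 50 to 54. In matDKO/CAST epiblast the count ran from 2 to 13, the Smoc1 LTR from -6.35 to 9.63 and the Sall1 LTR from -38.8 to -33.9. In matDKO/CAST ExE the Smoc1 LTR ran from -3.17 to 3.12, the Sall1 LTR from -11.0 to 5.81 and the Platr20 LTR from -23.8 to -7.79. In windows within 5 kb the parental difference in ExE was 3.96, 1.64 and 5.91 points at the Smoc1, Sall1 and Platr20 LTRs, and in the window of the midpoint 15.6 at Sall1 and 11.3 at Platr20. The difference of these between tissues was 7.01, 5.46 and 5.23 points within 5 kb. Without 1 library the parental difference in ExE ran from 16.3 to 21.8 at the Smoc1 LTR, -0.0428 to 9.60 at the Sall1 LTR and 3.97 to 10.8 at the Platr20 LTR. In epiblast it ran from -14.5 to 12.3 at the Smoc1 LTR, from -7.58 to -0.950 at the Sall1 LTR and from -2.15 to 3.56 at the Platr20 LTR. For the Smoc1 gene body the difference between tissues ran from -15.1 to -12.0 (exact permutation p = 0.0571, the smallest possible with 1 library fewer). Coverage is unknown, so values of alleles and of short windows may rest on few reads.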
